A study of Mus musculus with 2 samples.

Results

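Interleukin-10 (IL-10), its receptor chains, the kinases and transcription factor that carry its signal, and 4 genes that the signal induces or that limit it were examined in sorted mouse splenic red pulp macrophages. The 10 genes were Il10, Il10ra, Il10rb, Jak1, Tyk2, Stat3, Socs1, Socs3, Bcl3 and Nfil3. All 10 had a probe on the array, 11 probes on 29 spots in all, out of 39429 probes and 20655 named genes. They were chosen by name with the Il10 difference between these 2 arrays already known, so their values are given as a description and no test was made on them.

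Cells were compared from wild-type (WT) mice and from SIRPα-KO mice, which lack SIRPα, an inhibitory myeloid receptor for CD47. Per the labels, F4/80-positive, CD11b-low cells were sorted from digested spleens after red cell lysis, cells of 5 mice were mixed before RNA extraction in each genotype, and globin transcripts were depleted. Each genotype was therefore 1 pool on 1 array. The sources used here do not give strain, age or how the deletion was made. No difference has a replicate check. Errors given after ± are the signal error that the scanner software assigns to a spot, carried to the log2 difference. They do not cover mice or pools, and they are not a measured spread of spots. They were averaged over repeat spots and not reduced by their number, so Il10 (9 spots) and Socs3 (1 spot) both had 0.20.

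IL-10 is a cytokine that restrains inflammatory gene expression in macrophages, which both make it and respond to it. It binds a receptor of IL-10Rα, the ligand-specific chain, and IL-10Rβ, a chain shared with related cytokines. The kinases JAK1 and TYK2 bound to these chains then phosphorylate STAT3, which enters the nucleus and induces target genes, among them Socs3, Bcl3 and Nfil3. In macrophages of several tissues this pathway is known for holding back inflammatory cytokines.

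Both arrays were read in 1 scan, and 28170 probes of the WT array and 25734 of the other were well above background. The single Sirpa probe read 795 in WT and 1006 on the array labelled SIRPα-KO (difference 0.51 ± 0.20), so the targeted gene went against the label. Whether this probe lies inside the deleted part is not known here. That array is called the KO-labelled array below, and directions rest on the labels alone. The red pulp macrophage markers Adgre1, Spic, Vcam1, Csf1r, Cd5l, Hmox1, Slc40a1 and C1qb were well above background on both arrays. C1qa and Axl were so on the WT array only, Mertk was not well above background on either, and Cd68 matched no probe.

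Il10 was the member that differed most, 2.70-fold lower on the KO-labelled array. The cytokine gene was read by 1 probe, built on the transcript NM_010548 and printed on 10 spots, of which 9 were used on each array. Its signal had a lowest, median and highest spot of 9518, 9946 and 11562 on the WT array. On the KO-labelled array these were 3192, 3307 and 3782. Every used WT spot was therefore brighter than every used spot of the other array, and on the scaled log2 axis the dimmest WT spot lay 1.16 above the brightest spot of the other array. On that axis, where 0 is the 75th percentile of an array, Il10 had a value of 6.66 (spot SD 0.08) in WT and 5.22 (spot SD 0.07) on the KO-labelled array, a difference of -1.43 ± 0.20.

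**Figure D1:**
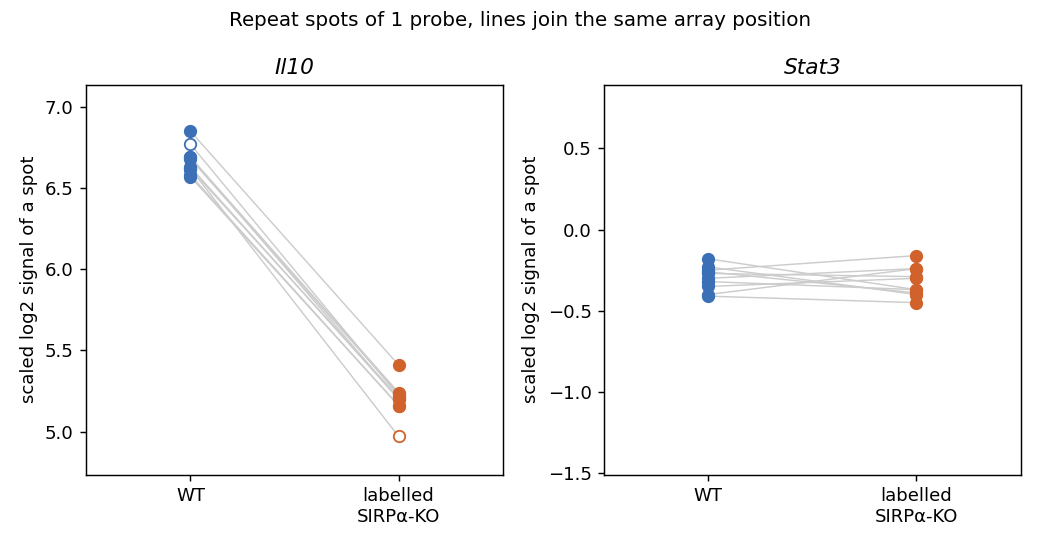
Scaled log2 signal of each of the 10 spots of the Il10 probe and of the Stat3 probe, by array; lines join spots at the same array position and open circles are spots left out as outliers. The Il10 spots of the arrays are separated by a gap of 1.16, whereas the Stat3 spots overlap.

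Both arrays carry the same layout, so the spots could also be compared position by position. At the 8 positions used on both arrays, spread from row 263 to row 476, the Il10 difference ran from -1.49 to -1.40 with an SD of 0.03. All 8 positions were lower on the KO-labelled array. The 2 positions left out because 1 array carried an outlier flag gave -1.55 and -1.64, the same direction. These spots repeat the measurement of 1 RNA pool and say nothing of the spread between mice.

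Of 9 members with a probe well above background on at least 1 array, Il10 alone was at least 2-fold lower, and 0 were at least 2-fold higher. Of the 15823 measured genes, 5.42% were lower by 2-fold or more and 3.11% were higher by as much. Since the members were chosen with this contrast in view, nothing is read from their count. The median difference of the 9 members was -0.27, and that of all measured genes was -0.08. Of the members 8 lay below 0 and Tyk2 was set to 0 because of its dim signal, although Socs3 turned above 0 under 3 other settings given below; of all measured genes 56.9% lay below 0.

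**Figure D2:**
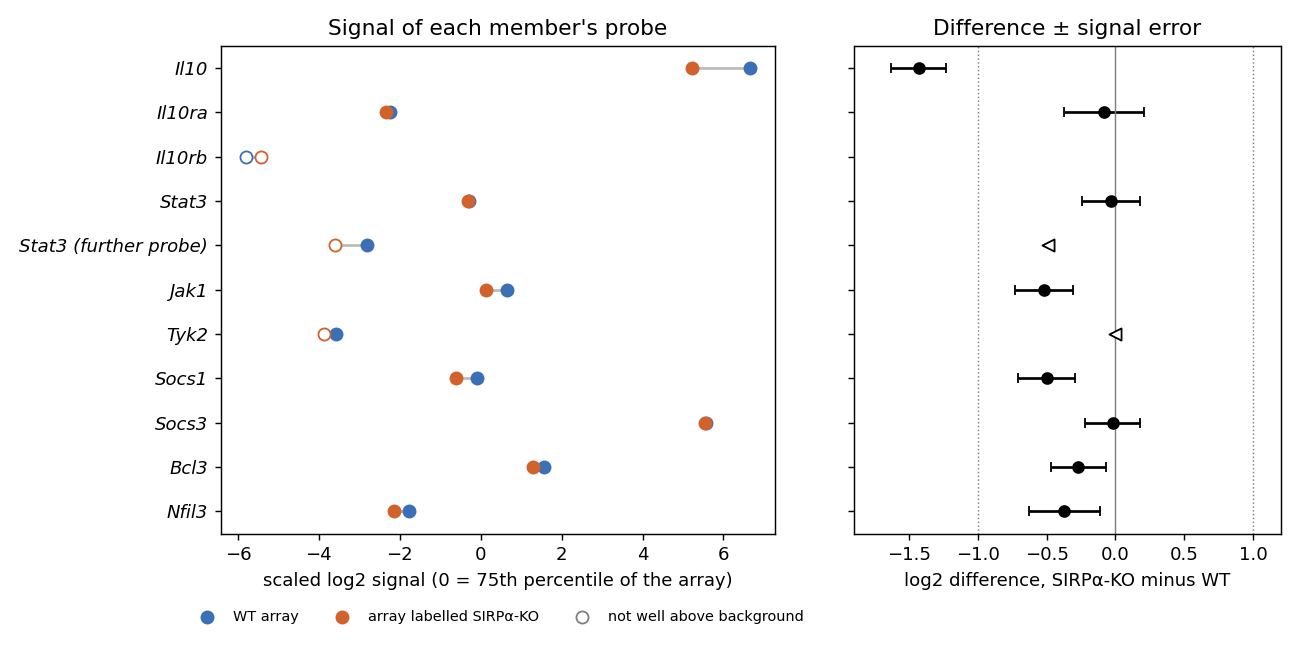
Left, scaled log2 signal of each member's probe on both arrays, with open circles where the probe was not well above background; right, the log2 difference with its signal error, with open triangles for lower bounds and dotted lines at 2-fold. Il10 lies at -1.43, past the 2-fold line, and the other measured members lie between -0.52 and 0.00.

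The receptor chains gave little signal. Il10ra, the ligand-binding chain, read 21.1 in WT and 17.8 on the KO-labelled array, 2.66 and 1.95 times the lowest signal well above background on each array. Its difference was -0.08 ± 0.29, smaller than its error. Il10rb, the shared chain, read 1.79 and 2.05 and was not well above background on either array, so no difference is given for it. The Il10 difference lay 1.36 ± 0.36 below that of Il10ra.

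The receptor-associated kinases differed in how well they could be read. Jak1, whose product is bound to IL-10Rα, read 156 in WT and 96.7 on the KO-labelled array. This is a difference of -0.52 ± 0.21, or 1.44-fold lower, the largest among the members other than Il10. Tyk2, whose product is bound to IL-10Rβ, read 8.38 on the WT array, close to the lowest signal well above background there (7.92), and was not well above background on the other (6.15). The lowest signal well above background on the KO-labelled array was 9.09, so no fold can be given for Tyk2.

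Stat3, which encodes the transcription factor of the pathway, had nearly equal values. Its main probe, built on NM_213659 and printed on 10 spots, had a lowest, median and highest signal of 75.6, 82.3 and 88.3 on the WT array. On the KO-labelled array these were 65.4, 70.7 and 79.7. After scaling the spots overlapped, with medians of -0.28 and -0.34. The difference was -0.03 ± 0.21; at the 10 positions it ran from -0.19 to 0.16, and 6 of the 10 lay below 0. A further Stat3 probe, built on NM_011486, read 14.4 in WT and 7.34 on the KO-labelled array, where it was not well above background. With the KO-labelled side set to the lowest value well above background, its difference was -0.49 ± 0.52 on the log2 scale, or 1.41-fold. This is smaller than its error, so no direction is read from this further probe.

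None of the target genes was past 2-fold. Socs3, an inhibitor of JAK kinases that is itself induced by STAT3, read 4731 and 4155, a difference of -0.02 ± 0.20. Its direction depended on the scaling: Socs3 lay at 0.27 after quantile normalization, 0.21 after cyclic loess and 0.23 in the authors' deposited values. Bcl3, an atypical IκB protein that acts on NF-κB p50 in the nucleus, read 295 and 218, a difference of -0.27 ± 0.20. Nfil3, a basic leucine zipper repressor that IL-10 induces in macrophages, read 29.4 and 20.2, a difference of -0.37 ± 0.26. After normexp background correction the Nfil3 difference was -0.09. That setting adds an offset of 50 to every signal, which by construction draws the differences of dim probes towards 0. Both differences were larger than 1 and smaller than 2 times their error.

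Socs1, an inhibitor of JAK kinases best known as a brake on interferon signalling, read 93.3 in WT and 58.5 on the KO-labelled array. Its difference of -0.50 ± 0.21, or 1.42-fold lower, was close to that of Jak1. Among the 8 measured members other than Il10, these were the only ones lower by more than 2 times their signal error; 17.7% of all measured genes were lower by that measure. The Socs1 difference lay 0.49 below that of Socs3, with an error of 0.30.

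The start of each gene was read from RefSeq promoter sequences (build GRCm38.p6, 250 bases before to 50 after the gene start), which held 7 of the 10 members: Jak1, Tyk2, Stat3, Socs1, Socs3, Bcl3 and Nfil3. A total of 4 motifs were searched on both strands: TTCNNNGAA, bound by STAT proteins; AANNGAAA, bound by interferon regulatory factors (IRFs); TGACGTCA, bound by CREB; and TGAGTCA, bound by AP-1. The STAT motif was found in Socs3 alone of the 7 members and in 8.30% of all 32851 promoters. The IRF motif was found in Socs1 alone, at 2 overlapping places, and in 23.9% of all promoters. The CREB motif was found in Jak1 alone and in 1.79% of all promoters, and the AP-1 motif in 0 of the 7 members and in 5.20% of all promoters. A match describes the letters only. The sequences are shown because Socs1 and Jak1 were the lowest members after Il10 and Socs3 lay near 0; each runs 5′ to 3′ on the strand of its gene, with matches to the named motif in capitals.
Socs3, chr11:117969501-117969530, minus strand, from 164 to 135 bases before the gene start, STAT motif: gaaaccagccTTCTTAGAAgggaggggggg
Jak1, chr4:101265306-101265335, minus strand, from 112 to 83 bases before the gene start, CREB motif: ggagcagcttcTGACGTCAcgggggctggg
Socs1, chr16:10785537-10785786, minus strand, the 250 bases before the gene start, IRF motif: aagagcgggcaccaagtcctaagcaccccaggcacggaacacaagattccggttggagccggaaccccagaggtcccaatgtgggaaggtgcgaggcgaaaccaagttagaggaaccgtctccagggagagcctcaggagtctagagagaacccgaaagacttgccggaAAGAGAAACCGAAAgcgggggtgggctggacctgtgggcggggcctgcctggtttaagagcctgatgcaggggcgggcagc

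Set against the rest of its pathway, Il10 lay 1.26 below the median of the 8 other measured members (-0.17). It lay 0.91 ± 0.29 below Jak1, 1.41 ± 0.29 below Stat3 and 1.41 ± 0.29 below Socs3. Against Bcl3, Nfil3 and Socs1 the gaps were 1.16 ± 0.29, 1.06 ± 0.33 and 0.93 ± 0.30. Under the main setting each gap was over 3 times its error, which again covers 1 array per genotype. The gaps also compare probes of unlike brightness: Il10 read 10119 in WT, Socs3 4731 and every other member 295 or less. Genes of the brightest 10% had a median of -0.32, against -0.08 for all measured genes, and the gaps were not corrected for this. After quantile normalization Il10 lay at -1.16, Jak1 at -0.49, Socs1 at -0.50 and Nfil3 at -0.36. The gaps to these 3 genes were then below 3 times their errors. The same held after cyclic loess and in the authors' deposited values, with Il10 at -1.20 in both.

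The size of the Il10 difference was not unusual for a probe of its brightness. Among the 1583 measured genes in the brightest 10% by mean signal, 17.6% were lower by 2-fold or more and 1.96% higher by as much, and their median was -0.32. In this set, 143 genes (9.03%) had a difference at or below that of Il10, against 2.90% of all 15823 measured genes. A set of 478 genes had a WT value within 1 log2 unit of that of Il10. Of these, 24.9% were at least 2-fold lower and 67 lay at or below Il10. This set was picked on the WT value, a term of the difference, and such a choice by itself favours lower differences. Of these 478, the 5 with the difference nearest to that of Il10 were Echdc2, Ctdnep1, Cobl, Bcas3 and Arl10, within 0.01 of it on the log2 scale, each read from 1 spot per array.

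**Figure D3:**
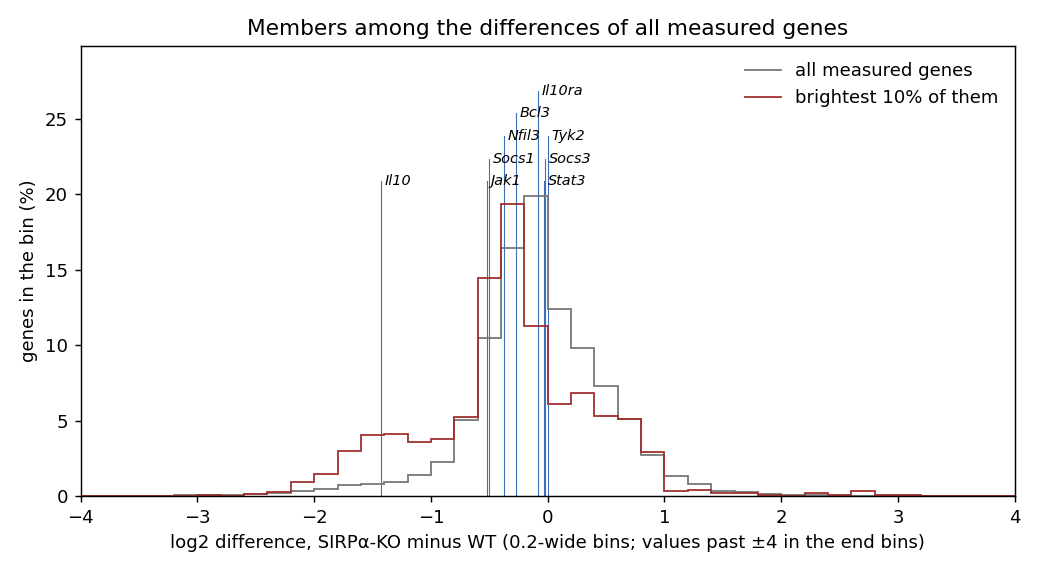
Share of genes in each 0.2-wide bin of the log2 difference, for all measured genes (grey) and for the brightest 10% (red), with thin vertical lines at the members. Il10 at -1.43 stands outside the bulk of all genes but within a lower shoulder of the brightest 10% between -2 and -1, which holds 16.2% of that set.

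Il10 could also be set beside other probes printed on repeat spots. Of 234 probes with at least 5 used spots per array and well above background on both, 8.55% were lower by 2-fold or more, 2.14% were higher by as much, and 14 (5.98%) lay at or below Il10, with a median of -0.08. In 18.4% of them the spots of the arrays did not overlap and were lower on the KO-labelled array, and in 11.1% they did not overlap and were higher. All 20 of the repeat-spotted probes at least 2-fold lower had spots that did not overlap.

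Il10 had no further probe, so its difference has no check by another sequence. A further probe well above background on both arrays was present for 74 genes of the brightest 10% that were past 2-fold lower. Of these, 7 were past 2-fold lower at that probe too, and 45 lay below 0 there. The 74 were picked by the difference of their brighter probe, so smaller differences at the dimmer further probe are partly built in.

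Close relatives of IL-10 were read next, from a list of 9 cytokines and receptors of the IL-10 family. Of 8 measured, 2 were at least 2-fold lower and 0 higher, against 5.42% and 3.11% of all measured genes, with a median of -0.23. Nothing is read from this count or from those of the lists below. Il19, a cytokine of this family that signals through the IL-20 receptor, read 806 in WT and 149 on the KO-labelled array, 4.82-fold lower (-2.27 ± 0.21). Its further probe gave -2.79, the same direction and more than 2-fold. Il22ra1, the receptor chain for IL-22, read 397 and 66.7, or 5.30-fold lower (-2.41 ± 0.21), but its further probe went the other way, at 0.21. Il20rb, a receptor chain and the brightest of the list, differed by -0.30 ± 0.20, and Il22 and Il24 each by -0.23. Il20 was well above background on the WT array only, and Ifnlr1 on neither.

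Among 23 regulators of Il10 transcription and mRNA, 18 were measured, of which 2 were at least 2-fold lower and 0 higher (median -0.23); after quantile normalization 0 were past 2-fold with a median of -0.07, and after cyclic loess 1 was with a median of -0.03. By the mean of all probes of a gene or by the dimmest probe, 0 were past 2-fold. Over all measured genes, the main setting gave 5.42% at least 2-fold lower and 3.11% higher. Nfkb1, which encodes the NF-κB subunit p50, was 2.34-fold lower (947 against 360, -1.23 ± 0.20), with a further probe at -0.25. Mapkapk2, a kinase downstream of p38 and the brightest of the list, differed by -0.23 ± 0.20. Prdm1 differed by 0.00, Cebpb by 0.21 and Mapk14, the p38 kinase, by -0.02. Maf, a direct activator of Il10, read 9.27 in WT, and its 6.76 on the KO-labelled array was not well above background, so no fold can be given.

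Other receptors that activate STAT3, and the other JAK and STAT genes, formed a list of 16, of which 15 were measured. Of these 1 was at least 2-fold lower and 1 higher, against 5.42% and 3.11% of all measured genes. Their median was -0.41, or -0.26 after cyclic loess and -0.09 after normexp. Stat5a was 3.47-fold lower (921 against 236, -1.80 ± 0.20) and Stat4 2.11-fold higher (54.6 against 103, 1.08 ± 0.21), each on a single probe; Stat4 was not past 2-fold without scaling or after normexp. Stat6, the factor of IL-4 signalling, differed by -0.92 at its brightest probe and by 0.51 and -0.10 at 2 further probes. Stat2, which carries interferon signals, differed by -0.75 ± 0.20. Jak2 differed by -0.47 ± 0.20 and Jak3 by -0.23 ± 0.23, against -0.52 for Jak1. Csf3r, the receptor of granulocyte colony-stimulating factor and the brightest of the list, differed by 0.53 ± 0.20, and Il6ra, the IL-6 receptor, by 0.01 ± 0.21.

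Inhibitors of JAK-STAT signalling showed no member past 2-fold: of 16 genes 13 were measured, with a median of -0.07 and a range from -0.78 to 0.58. Under other scalings that median lay between -0.23 and 0.00. Usp18, which dampens interferon receptor signalling and is the brightest of the list, differed by -0.78 ± 0.20. Cish, a SOCS family member, differed by -0.60 ± 0.21 and Socs6 by -0.55 ± 0.21, near the value of Socs1, whereas Socs2 differed by 0.09 ± 0.22. Ptpn11, the phosphatase SHP-2, differed by 0.58 ± 0.20 and its relative Ptpn6 (SHP-1) by -0.63 ± 0.34.

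Among 20 other target genes of IL-10 or STAT3, 14 were measured, with a median of -0.12. Of these 1 was at least 2-fold lower and 1 higher, against 5.42% and 3.11% of all measured genes. Mcl1, an anti-apoptotic BCL-2 family gene, was 3.09-fold lower (235 against 67.6, -1.63 ± 0.21). Fcgr1, the high-affinity Fcγ receptor and the brightest of the list, was 2.35-fold higher (251 against 525, 1.23 ± 0.20), though not past 2-fold after normexp. Il1rn, the IL-1 receptor antagonist, differed by 0.07 ± 0.21 and Ddit4, an inhibitor of mTORC1 signalling, by -0.11 ± 0.21. Sbno2, a corepressor induced by IL-10, differed by -0.37 ± 0.36. Cd163, the haptoglobin-haemoglobin scavenger receptor, differed by -0.57 ± 0.24, and Il4ra by 0.00 with a further probe at -0.81. Bcl2l1, another anti-apoptotic gene, differed by 0.62 ± 0.20, with a further probe at 0.01.

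Genes that IL-10 is known to lower in macrophages were also read. Of 21 genes 17 were measured, 9 at least 2-fold lower, against 5.42% of all measured genes, and 0 higher, with a median of -1.11; after normexp these were 6 and 0, with a median of -0.39. This list repeats genes already known to be lower on these arrays and is no independent evidence. Il1b, the brightest, was read from 8 WT spots and 10 on the other array, with signals of 10418 and 3223, a difference of -1.52 ± 0.20 beside the -1.43 of Il10. The others at least 2-fold lower were Cxcl10 (49.1-fold), Il6 (12.5-fold), Ccl5 (3.35-fold), Ccl3 (3.21-fold), Ccl4 (3.11-fold), Cd40 (2.35-fold), Csf2 (at least 2.97-fold) and Ptgs2 (at least 2.15-fold). Tnf differed by 0.02 ± 0.31 and Il23a by 0.00 ± 0.25, and Cd80, a costimulatory ligand, by 0.56 ± 0.20 with a further probe at 0.50.

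**Figure D4:**
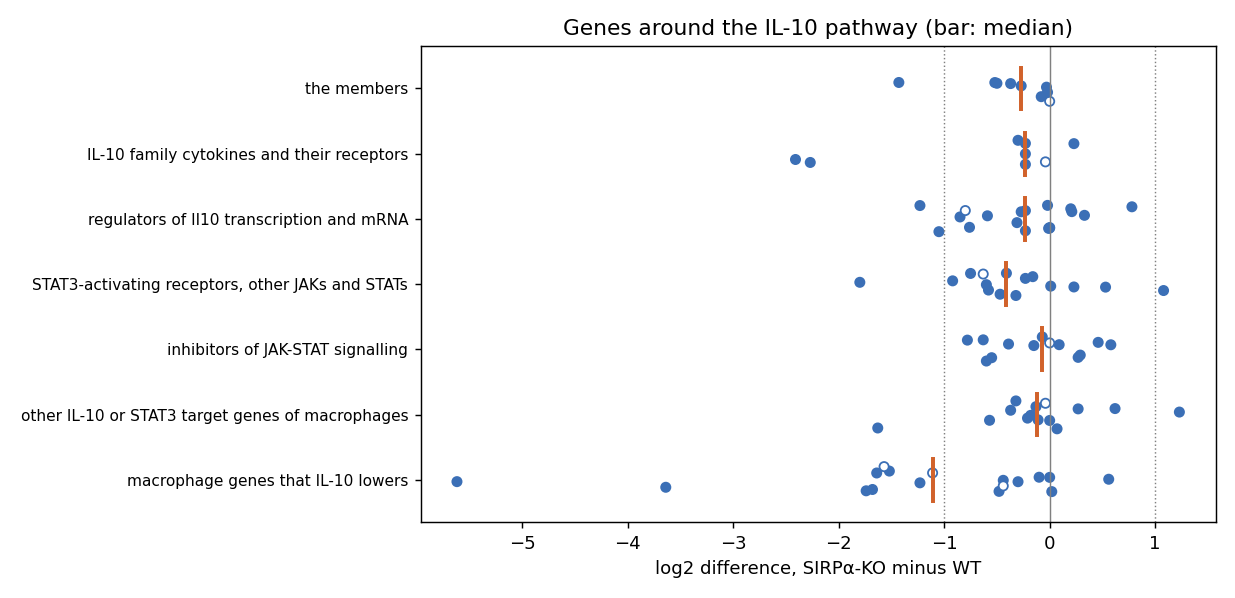
Log2 difference of each measured gene in the members and in 6 lists around the pathway; open circles are lower bounds, bars are medians and dotted lines mark 2-fold. The list of genes that IL-10 lowers has a median of -1.11, and the other lists and the members have medians between -0.41 and -0.07.

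IL-10 is also made by B cells, plasma cells, T cells, dendritic cells and other cells that a sort can carry, and fewer cells of a type cannot be told apart from less RNA per cell in these pools. Some markers of each of these types were well above background on both arrays. Beside the marker counts in this and the next paragraph, 5.42% of all measured genes were at least 2-fold lower and 3.11% higher. Of 8 B cell markers, 8 were measured, 1 at least 2-fold lower and 0 higher, with a median of 0.07 and 4 of the 8 above 0. Their summed scaled signal was 25.0 in WT and 13.2 on the KO-labelled array, but without Cr2 (-2.07, with a further probe at 0.31) it was 9.56 and 9.57. Of 7 plasma cell markers, 2 were at least 2-fold lower, Jchain by -2.78 and Derl3 by -1.06, and the sum was 36.8 and 28.0, or 23.4 and 26 without Jchain. Of 7 measured T cell markers 1 was at least 2-fold lower, Cd8b1 (-1.27), and the median was -0.16. The sum was 363 and 185, or 84.4 and 69.8 without Cd8b1, and Foxp3 of regulatory T cells differed by -0.16 ± 0.22. The part of such cells in the Il10 difference was not tested.

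The dendritic cell list had 1 of 7 measured markers at least 2-fold lower, Flt3 (-1.07), and a sum of 809 and 1282, or 14.7 and 7.67 without Siglech (0.68, with a further probe at 0.03). Sums for the remaining lists were 182 and 148 for NK cells, 129 and 114 for monocytes, 650 and 719 for neutrophils (458 and 442 without Csf3r), and 3.41 and 3.09 for mast cells and basophils. In these, 1 monocyte marker and 1 neutrophil marker, S100a8 (-1.23), were at least 2-fold lower, and Klrk1, Ccr2, Mpo, Ms4a2 and Kit were not well above background on either array. The red pulp macrophage list had 1 of 10 measured markers at least 2-fold apart, Cd5l at 1.46, with a median of -0.07, 5 below 0 and 4 above. Its sum was 142 and 199, or 74.3 and 82.8 without Adgre1 (0.78, with a further probe at -0.47).

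The Il10 difference kept its direction and stayed past 2-fold under every scaling tried, from -1.60 without scaling to -1.16 after quantile normalization. It was -1.20 both after cyclic loess and in the authors' deposited values, where genes of the brightest 10% at least 2-fold lower made up 13.5% and 13.0%. Jak1 ranged from -0.69 to -0.37 and Socs1 from -0.67 to -0.32 over the same settings, always below 0 and never past 2-fold.

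**Figure D5:**
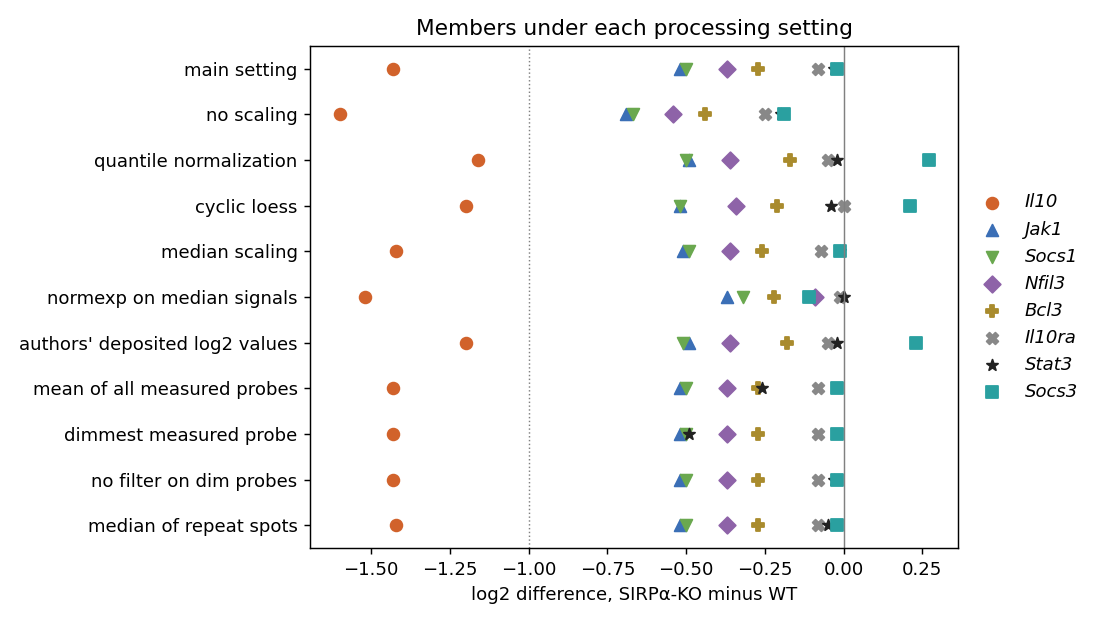
Log2 difference of 8 members under the main setting and 10 alternatives; the dotted line marks 2-fold lower. Il10 stays between -1.60 and -1.16, and Socs3 moves from -0.02 to between 0.21 and 0.27 under quantile normalization, cyclic loess and the authors' deposited values.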

How the data were processed

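Per spot, the deposited scanner tables give brightness as intensity, made with Agilent Feature Extraction 11.0.1.1 on array design 26655 (build mm9) per the file headers; the processed signal is already background-subtracted. A deposited table of the authors' log2 values, with normalization steps not given in these sources, served as an alternative. Control spots and outlier spots were left out (190 and 167 of 43020), and no spot was saturated. Processed signals were divided by each array's 75th percentile (100.2 for WT, 89.15 for SIRPα-KO), put on a log2 scale and averaged over spots. Probes were named through RefSeq accessions of GRCm38.p6, which served only for naming (27228 of 39429 probes). The probe with the highest mean signal stands for a gene, which counts as measured when that probe is well above background on at least 1 array. Where only 1 array was, the dim side took its own value or, if higher, the lowest value well above background, giving a lower bound. Each genotype has 1 array, so no test was made and 2-fold was the limit. The members and lists were chosen with earlier results of these data known. Named genes were all members, list genes at least 2-fold apart, the brightest of each list, and the 5 genes nearest to Il10; other list genes were named after their values were seen, as were the motifs. Prdm1, Csf3r and Hmox1 stand in both a pathway list and a marker list; Il12b, Cd68, Ctla4, Itgae, Ly6c2 and Ly6g matched no probe and were not analysed here. Single values of some list genes, which stay in the counts and medians, are not reported here. Sums of cell markers were also taken without the marker whose scaled signal differed most, a choice made after seeing the data. The number of arrays limits the precision. The gene step was tested on simulated data. Tools were Python 3.11.15, R 4.3.3 and limma 3.58.1.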

Additional observations from a re-analysis of the deposited data

How the results depend on the processing

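No paired analysis was possible because each genotype had 1 array. Normexp was run on median signals, chosen after the data were seen, with an offset of 50 that by construction draws the differences of dim probes towards 0. Normexp on mean signals was not run, as the tables used here hold no mean signal. Il10 moved from -1.43 by more than its error of 0.20 after quantile normalization (-1.16), cyclic loess (-1.20) and in the authors' deposited values (-1.20), and its gap to the median of the other members from -1.26 to -1.05 after quantile normalization. The count of members at least 2-fold lower was 1 and became 0 at a limit of 3-fold, by construction. No member was at least 2-fold higher under any of the 11 alternatives run for that count, and the median of the members ranged from -0.44 to -0.11. The cause of these shifts was not tested. Signals near 7.92 (WT) and 9.09 (SIRPα-KO), the lowest well above background, limit Il10ra, Il10rb and Tyk2.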

Other observations

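The brightest 10% of measured genes had a shoulder of lower differences. Between -2 and -1 on the log2 scale lay 256 of its 1583 genes (16.2%), against 441 of the 14240 other measured genes (3.10%). The mirror range from 1 to 2 held 1.26% of the brightest 10%. Il10 (-1.43) and Il1b (-1.52) lie between -2 and -1. Where genes of this set past 2-fold lower had a further probe, the median difference there was -0.16 over 74 genes. That probe was the dimmer one and was not used to pick the genes. After cyclic loess, 13.5% of the set were lower by 2-fold or more and 5.94% higher by as much.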
